A study of Mus musculus with 10 samples.

Results

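Ductal macrophages of the virgin mouse mammary gland were compared with the CD11b- dendritic cells of the same tissue, gene by gene. The comparison used 6 of the 10 RNA-seq libraries of the study: 2 of ductal macrophages, 2 of CD11b-CD103+ dendritic cells and 2 of CD11b-CD103- dendritic cells. All cells were sorted fresh from mammary glands of adult female virgin C57BL/6 mice, with no treatment or genetic change named for any group. The remaining 4 libraries, 2 of stromal macrophages and 2 of CD11b+ dendritic cells, entered the fit but are described here only where stated. Dendritic cell values and libraries without a further name are those of the CD11b- populations. The 2 libraries of a population are labelled biological replicates. Whether each came from 1 mouse or several pooled mice is not stated there, so p-values measure the spread between these libraries. The 2 dendritic cell populations were weighted equally, and 15681 of 27179 genes passed the filter on low counts. The question was how far the macrophages that lie along the ducts differ from the conventional dendritic cells that lack CD11b.

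Macrophages are long-lived phagocytes that engulf dead cells and debris and digest them in lysosomes, and most depend on the growth factor receptor CSF1R. In the mammary gland, ductal macrophages lie between the epithelial layers of the ducts. Dendritic cells take up less material, keep peptides intact for longer, move to lymph nodes and present those peptides to T cells. The CD11b- dendritic cells correspond to the type 1 conventional lineage, which depends on the receptor FLT3 and the factors IRF8 and BATF3. Cells of that lineage read dying cells through CLEC9A, carry the chemokine receptor XCR1, and prime CD8 T cells by cross-presentation. CD103, the integrin chain encoded by Itgae, divides that lineage in many tissues.

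The ductal libraries were shallower, with 5636092 and 6388106 counts assigned to genes, against 18594628 and 22519191 in CD103+ and 11703066 and 18075324 in CD103- dendritic cells. Expression is given as CPM, read counts scaled to a common library size, after TMM scaling, a method that corrects for the few very abundant genes of a library. A count of 3 equals 0.683 and 0.567 CPM in the ductal libraries and 0.119 to 0.207 CPM in the dendritic cell libraries. The 50 most abundant genes took 35.2% and 35.3% of ductal counts, against 22% to 25.8% in dendritic cells. Mitochondrial genes took 0.631% and 0.891% of ductal counts, against 2.13% to 6.29% in dendritic cells. Macrophage markers summed to 20500 and 18700 CPM in the ductal libraries, against 218 to 330 CPM in the dendritic cells, the order that the labels give. In these bulk libraries, fewer cells of a type and less RNA per cell cannot be told apart. Markers of type 1 dendritic cells summed to 1060 and 1010 CPM in the ductal libraries, most of it from Cadm1, against 2760 to 3890 CPM in the dendritic cells. Luminal epithelial markers were present throughout, at 222 and 406 CPM in ductal macrophages and 417 to 1480 CPM in dendritic cells. B cell markers stood at 15 and 19.5 CPM in ductal macrophages and 5.44 to 280 CPM in dendritic cells, with the highest sum in CD103- replicate 2. Monocyte markers reached 95.4 and 67.3 CPM in ductal macrophages and 305 to 801 CPM in dendritic cells, with Ccr2 the largest part of each sum. Fibroblast markers reached 415 and 1210 CPM in ductal macrophages and 356 to 910 CPM in dendritic cells. The part of these other cells in the results below was not tested, apart from the values given beside single genes.

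Ductal macrophages and CD11b- dendritic cells differed at 28.4% of the tested genes. By edgeR's quasi-likelihood test at a Benjamini-Hochberg adjusted p under 0.05, 2411 genes (15.4% of those tested) were higher in ductal macrophages and 2035 (13.0%) were lower. More than 2-fold differences made up 1814 of the higher and 1738 of the lower genes, and differences beyond 16-fold made up 293 and 340. The median log2 fold change over all genes was -0.11, and the median standard error of a log2 fold change was 0.363. Both ductal libraries lay above all 4 dendritic cell libraries for 25.2% of genes and below them for 27.0%. The counts depended on the ductal libraries, since without ductal replicate 1 they fell to 1327 higher and 869 lower, and without ductal replicate 2 to 1726 and 1225. The split depended on scaling: 54.2% of called genes were higher, against 21.0% when libraries were scaled by total counts alone, which moved the median of all genes by -0.616 on the log2 scale. Upper-quartile scaling moved that median by -0.142. Directions of gene groups below hold under TMM, upper-quartile and relative log expression scaling, and those whose median turned under total counts are named.

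**Figure D1:**
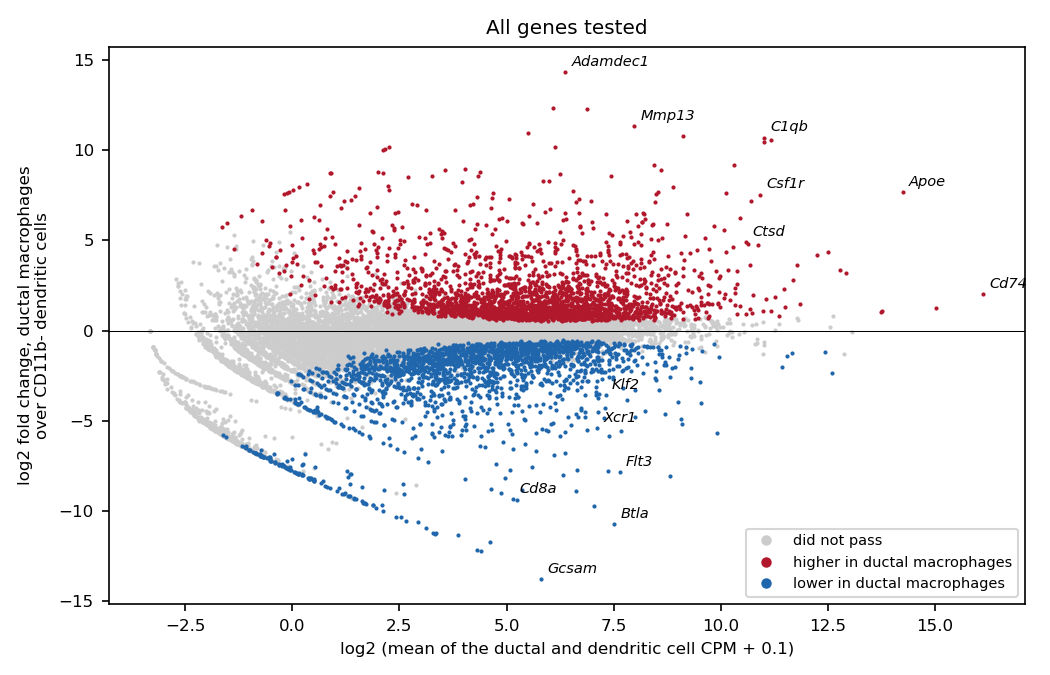
Log2 fold change of ductal macrophages over CD11b- dendritic cells (vertical axis) against the log2 of mean CPM plus 0.1 (horizontal axis) for the 15681 tested genes. Each point is a gene, red where higher, blue where lower and grey where the test was not passed. Called genes spread over more than 16-fold in both directions, with 293 beyond that fold above and 340 below.

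The genes with the largest excess in ductal macrophages encoded secreted proteases, complement and membrane receptors of macrophages. Adamdec1, a secreted metalloprotease-like protein of tissue macrophages (gene ID 58860, chr14:68563387-68582072, GRCm38), had 171 and 161 CPM in ductal macrophages, against 0 and 0 CPM in CD103+ and 0 and 0 CPM in CD103- dendritic cells. It had no count in any CD11b- dendritic cell library, so it was at least 4800-fold higher, taking 3 counts over the group as the floor (adjusted p = 2.58e-05). The 3 chains of C1q, the recognition molecule of the classical complement pathway, lie side by side on chromosome 4, and all were higher in ductal macrophages. C1qb (gene ID 12260, chr4:136880126-136886200, GRCm38) had 4152 and 4087 CPM in ductal macrophages, against 4.57 and 4.12 CPM in CD103+ and 1.73 and 1.18 CPM in CD103- dendritic cells. That difference was 10.69 ± 0.38 on the log2 scale (log2 fold change ± SE, adjusted p = 1.29e-07), and C1qc and C1qa differed by 10.54 ± 0.44 and 10.47 ± 0.49. The ductal and dendritic cell libraries were far apart for all 3 chains. Mmp13, a collagenase, had 437 and 573 CPM in ductal macrophages, against 0.437 and 0 CPM in CD103+ and 0 and 0.271 CPM in CD103- dendritic cells (log2 fold change 11.34 ± 0.62). Mmp12, the macrophage elastase, had 2457 and 2529 CPM in ductal macrophages, against 109 and 74.6 CPM in CD103+ and 0.414 and 0.0452 CPM in CD103- dendritic cells. Mmp12 in CD103+ dendritic cells was far above the level in CD103- dendritic cells, though still below the ductal level. Its log2 fold change of 9.17 ± 0.48 is the mean of 4.77 ± 0.50 against CD103+ and 13.57 ± 0.78 against CD103- cells. Gdf3, a secreted protein of the TGF-beta family, had 156 and 116 CPM in ductal macrophages, against 0.0794 and 0.0792 CPM in CD103+ and 0 and 0 CPM in CD103- dendritic cells. Lilra5, an activating immunoglobulin-like receptor, had 203 and 264 CPM in ductal macrophages, against 0.0794 and 0.436 CPM in CD103+ and 0 and 0 CPM in CD103- dendritic cells. Neither gene was at more than 1 CPM in any CD11b- dendritic cell library, while Gdf3 had 4.40 and 5.03 CPM in CD11b+ dendritic cells.

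MS4A proteins, tetraspan membrane proteins often found in macrophages, gave 3 of the 15 genes with the largest excess. Ms4a7 had 1109.8 and 1120.1 CPM in ductal macrophages, against 0.715 and 0.990 CPM in CD103+ and 0.207 and 0.678 CPM in CD103- dendritic cells, a log2 fold change of 10.75 ± 0.44. Ms4a4a averaged 776 ± 98.3 CPM in ductal macrophages and 1.62 ± 0.489 CPM in the dendritic cells (SD, n = 2 and 4), and Ms4a14 averaged 90.9 ± 36.03 CPM in ductal macrophages and 0.129 ± 0.232 CPM in the dendritic cells. These genes have close relatives, so reads shared between copies could affect single values. C5ar1, the receptor for the complement fragment C5a, had 621 and 774 CPM in ductal macrophages, against 1.23 and 0.831 CPM in CD103+ and 2.42 and 0.588 CPM in CD103- dendritic cells (log2 fold change 9.16 ± 0.45). Tlr8, an endosomal receptor related to RNA-sensing Toll-like receptors, had 146 and 135 CPM in ductal macrophages, against 3.53 and 0 CPM in CD103+ and 0 and 0 CPM in CD103- dendritic cells. CD103+ replicate 1 alone held Tlr8 counts among the CD11b- dendritic cell libraries, while CD11b+ dendritic cells had 13.8 and 9.51 CPM. Kcnj10, a potassium channel, and Creg2, a secreted glycoprotein, completed the list, with 32.5 ± 4.37 against 0.0709 ± 0.114 CPM and 41.2 ± 10.96 against 0.0920 ± 0.0674 CPM in ductal macrophages against dendritic cells.

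At the other end stood genes that were near 0 in ductal macrophages, among them genes known from dendritic and lymphoid cells. Gcsam, a signalling adaptor known from germinal centre B cells (gene ID 14525, chr16:45610440-45622867, GRCm38), had 0 and 0 CPM in ductal macrophages, against 94.4 and 122 CPM in CD103+ and 97.7 and 136 CPM in CD103- dendritic cells. With no ductal count it was at least 366-fold lower (adjusted p = 5.17e-05). Btla, an inhibitory receptor of the immunoglobulin family (gene ID 208154, chr16:45223705-45252895, GRCm38), had 0 and 0.378 CPM in ductal macrophages, against 299 and 462 CPM in CD103+ and 284 and 413 CPM in CD103- dendritic cells. Its 2 ductal counts against 32447 dendritic cell counts gave a ratio of 1800 with a 95% counting interval of 499 to 14900. Kmo, kynurenine 3-monooxygenase of tryptophan breakdown, had 0 and 0.189 CPM in ductal macrophages, against 53.8 and 82.6 CPM in CD103+ and 88.7 and 76.2 CPM in CD103- dendritic cells. Septin3, a cytoskeletal GTPase, averaged 0.303 ± 0.106 CPM in ductal macrophages and 265 ± 66.4 CPM in the dendritic cells. Cd8a, the CD8 alpha chain carried by resident type 1 dendritic cells of lymphoid organs, had 0 and 0.189 CPM in ductal macrophages, against 45.2 and 92.4 CPM in CD103+ and 64.97 and 80.96 CPM in CD103- dendritic cells. These 5 genes were well detected in both dendritic cell populations and had at most 3 counts each over both ductal libraries. Kmo was not low in macrophages generally, with 80.6 and 79.3 CPM in stromal macrophages. Gcsam, Btla, Septin3 and Cd8a averaged 1.47, 0.462, 0.221 and 0 CPM in stromal macrophages. Gpr33, a chemoattractant-like receptor, was at least 134-fold lower. Apol7c, an apolipoprotein L family member of dendritic cells, was at least 177-fold lower, with 0 and 0 CPM in ductal macrophages, against 37.8 and 139 CPM in CD103+ and 9.87 and 7.10 CPM in CD103- dendritic cells. Apol7c thus varied more among dendritic cell libraries than the other genes of this group, with its highest level in CD103+ replicate 2.

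Tiam1, an activator of the GTPase Rac, averaged 0.114 ± 0.161 CPM in ductal macrophages and 57.96 ± 7.79 CPM in the dendritic cells, and Gpr141b, an orphan receptor, averaged 0.436 ± 0.349 CPM in ductal macrophages and 197 ± 49.4 CPM in the dendritic cells. Cd226, an adhesion receptor for nectins, averaged 0.0946 ± 0.134 CPM in ductal macrophages and 49.3 ± 12.5 CPM in the dendritic cells, and Ctla4, an inhibitory receptor best known from T cells, averaged 0.0946 ± 0.134 CPM in ductal macrophages and 32.6 ± 11.3 CPM in the dendritic cells. Pstpip1, a cytoskeletal adaptor, averaged 0.189 ± 0.268 CPM in ductal macrophages and 62.2 ± 16.3 CPM in the dendritic cells. In stromal macrophages Pstpip1 averaged 34.6 ± 12.2 CPM, while Tiam1, Gpr141b, Cd226 and Ctla4 averaged 6.07, 1.67, 4.78 and 0.0552 CPM. Itgb7, the integrin beta chain that pairs with CD103, had 2.73 and 3.78 CPM in ductal macrophages, against 562 and 919.8 CPM in CD103+ and 1308 and 806 CPM in CD103- dendritic cells, a log2 fold change of -8.07 ± 0.45 (adjusted p = 5.53e-07). Itgb7 was abundant in CD103- as well as CD103+ cells. Immunoglobulin genes also reached the list. Igkc, the kappa light chain constant region, had 0.228 and 0 CPM in ductal macrophages, against 32.1 and 2.61 CPM in CD103+ and 73.4 and 217 CPM in CD103- dendritic cells, and Ighg2c, a heavy chain constant region, had 0 and 0 CPM in ductal macrophages, against 54.9 and 0.871 CPM in CD103+ and 42.9 and 68.6 CPM in CD103- dendritic cells. Their dendritic cell values spread widely, and the B cell markers Cd79a and Ms4a1 were highest in CD103- replicate 2 as well. Cd79a had 0.228 and 0.378 CPM in ductal macrophages, against 0.873 and 0.911 CPM in CD103+ and 10.7 and 62.6 CPM in CD103- dendritic cells. The Ighg2c call was lost without ductal replicate 1 (adjusted p = 0.128) and without ductal replicate 2 (0.113), and limma-voom called neither Ighg2c (0.262) nor Igkc (0.154).

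The receptors that define macrophages separated the populations. Csf1r, the receptor for CSF1 and IL-34 (gene ID 12978, chr18:61105572-61131139, GRCm38), had 4317 and 3427 CPM in ductal macrophages, against 42.6 and 16.04 CPM in CD103+ and 19.1 and 10.8 CPM in CD103- dendritic cells. Its log2 fold change was 7.53 ± 0.44 (adjusted p = 6.55e-07), with no overlap between the groups. Adgre1, which encodes F4/80, had 1045 and 828 CPM in ductal macrophages, against 4.96 and 5.07 CPM in CD103+ and 4.35 and 1.49 CPM in CD103- dendritic cells (log2 fold change 7.95 ± 0.39). Fcgr1, the high-affinity IgG receptor CD64, had 103.4 and 152 CPM in ductal macrophages, against 1.15 and 0.554 CPM in CD103+ and 0 and 0.317 CPM in CD103- dendritic cells (log2 fold change 8.28 ± 0.41). Mertk, a receptor for dead cells, had 63.8 and 41.2 CPM in ductal macrophages, against 6.39 and 3.01 CPM in CD103+ and 4.83 and 1.49 CPM in CD103- dendritic cells (log2 fold change 3.78 ± 0.49, adjusted p = 0.000186). All 4 were higher in both ductal libraries than in any dendritic cell library. In the list of macrophage receptors 16 of 21 tested members were higher, 3 were lower and 2 did not pass the test, beside 15.4% higher and 13.0% lower over all genes. Their median log2 fold change was 4.67, beside -0.11 over all genes. Siglec1, a sialic acid receptor, and Msr1 and Trem2, receptors for modified lipids and lipoproteins, differed by 8.21 ± 0.59, 7.71 ± 0.29 and 7.60 ± 0.52. The lysosomal glycoprotein gene Cd68 averaged 1196 ± 15.1 CPM in ductal macrophages and 229 ± 58.5 CPM in the dendritic cells, and the mannose receptor gene Mrc1 averaged 51.96 ± 11.3 CPM in ductal macrophages and 2.04 ± 0.419 CPM in the dendritic cells. The 3 lower members were Timd4, a phosphatidylserine receptor, at 2.41 ± 0.462 against 119 ± 60.8 CPM in ductal macrophages against dendritic cells, Lyve1 at 0.984 ± 0.748 against 9.78 ± 5.34 CPM, and the haemoglobin scavenger receptor Cd163 at 0.492 ± 0.374 against 6.04 ± 1.20 CPM. Here and below, the members with the 5 largest differences in a list were named by rule, and any further members were picked after their values were seen. Each list count below stands beside the same 15.4% higher and 13.0% lower over all genes.

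**Figure D2:**
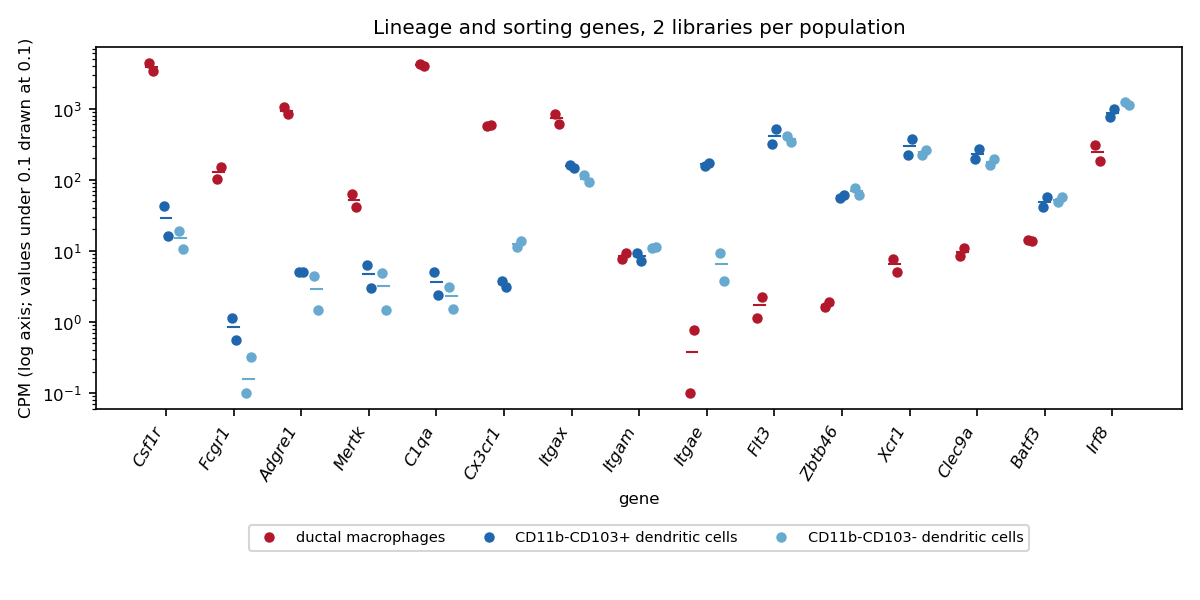
CPM (log axis) of lineage and sorting-marker genes in each library, with ductal macrophages drawn left of CD103+ and CD103- dendritic cells; points are libraries and bars are means of 2. Csf1r, Adgre1 and Fcgr1 lie far higher in the ductal libraries, and Flt3, Zbtb46, Xcr1 and Clec9a far higher in the dendritic cells.

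Most of the macrophage transcription factors tested were higher in ductal macrophages. Spic, known from splenic red pulp macrophages, averaged 118 ± 57.2 CPM in ductal macrophages and 1.31 ± 0.519 CPM in the dendritic cells (log2 fold change 6.56 ± 0.34). Nr1h3, the oxysterol sensor LXR alpha, averaged 62.8 ± 43.6 CPM in ductal macrophages and 3.83 ± 2.65 CPM in the dendritic cells, and Tfec, a member of the MiT family, had 87 counts in ductal macrophages and none in dendritic cells, at least 261-fold higher. The related factors Mitf, Tfeb and Tfe3, which activate lysosomal genes, were higher by 3.08 ± 0.31, 0.93 ± 0.21 and 0.91 ± 0.18 on the log2 scale. Spi1, which encodes PU.1 of all myeloid cells, differed by 0.77 ± 0.21. In all, 13 of 23 tested members were higher, 3 were lower and 7 did not pass the test, with a median of 0.91. Klf2, Klf4 and Nr4a1, factors that stimulation can induce, were the lower members, at 24.8 ± 1.87 against 295 ± 62.4 CPM, 34.6 ± 2.93 against 165 ± 31.6 CPM and 179.8 ± 94.8 against 647 ± 91.9 CPM in ductal macrophages against dendritic cells. The Nr4a1 call was lost without ductal replicate 1 (adjusted p = 0.0524).

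Dendritic cell factors ran the other way. Irf8, required for type 1 dendritic cells, had 306 and 183 CPM in ductal macrophages, against 766 and 997 CPM in CD103+ and 1221 and 1113 CPM in CD103- dendritic cells (log2 fold change -2.05 ± 0.30, adjusted p = 0.000451) and was well detected in ductal macrophages. Batf3 had 14.4 and 13.6 CPM in ductal macrophages, against 41.3 and 56.4 CPM in CD103+ and 48.9 and 56.2 CPM in CD103- dendritic cells (log2 fold change -1.86 ± 0.27). Zbtb46, expressed by conventional dendritic cells, had 1.59 and 1.89 CPM in ductal macrophages, against 55.9 and 60.9 CPM in CD103+ and 75.8 and 61.3 CPM in CD103- dendritic cells (log2 fold change -5.17 ± 0.41). Irf8 and Batf3 were lower but present in ductal macrophages, while Zbtb46 was nearly absent. In the list, 1 of 18 tested members was higher, 11 were lower and 6 did not pass the test, with a median of -1.08. Bcl11a, a lymphoid and dendritic cell regulator, had 1 ductal count and Spib, a relative of PU.1 found in B cells and plasmacytoid dendritic cells, had none. Spib was at least 26-fold lower, with 0 and 0 CPM in ductal macrophages, against 2.82 and 3.72 CPM in CD103+ and 6.42 and 20.1 CPM in CD103- dendritic cells, the highest in the library with the most B cell markers. The single higher member was Runx3, which averaged 227 ± 24.5 CPM in ductal macrophages and 103.1 ± 9.72 CPM in the dendritic cells.

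Growth factor receptors were split between the lineages. Flt3, the receptor that sustains dendritic cells (gene ID 14255, chr5:147330741-147400489, GRCm38), had 1.14 and 2.27 CPM in ductal macrophages, against 314 and 520.2 CPM in CD103+ and 416 and 342 CPM in CD103- dendritic cells (log2 fold change -7.83 ± 0.59, adjusted p = 3.6e-06). Fgfr1, a fibroblast growth factor receptor, averaged 4.68 ± 2.75 CPM in ductal macrophages and 177 ± 41.8 CPM in the dendritic cells, and Kit, the stem cell factor receptor, averaged 29.3 ± 5.59 CPM in ductal macrophages and 205 ± 31.2 CPM in the dendritic cells. Csf3r, the receptor for G-CSF, had 169 and 135 CPM in ductal macrophages, against 0.278 and 0.198 CPM in CD103+ and 0.829 and 0.317 CPM in CD103- dendritic cells (log2 fold change 8.70 ± 0.32). The neutrophil markers S100a8, S100a9, Retnlg and Cxcr2 had no count in the ductal libraries. Tgfbr1 and Tgfbr2, the paired receptors for TGF-beta, averaged 649 ± 95.2 CPM in ductal macrophages and 31.98 ± 9.08 CPM in the dendritic cells, and 393 ± 42.98 CPM in ductal macrophages and 56.6 ± 14.5 CPM in the dendritic cells. Il10ra and Il10rb, which form the IL-10 receptor, differed by 1.50 ± 0.32 and 2.39 ± 0.19. Of the growth factor receptors, 9 of 18 tested members were higher, 3 were lower and 6 did not pass the test.

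The genes that conventional dendritic cells share were lower in ductal macrophages almost throughout. Of this core, 2 of 18 tested members were higher, 14 were lower and 2 did not pass the test, with a median of -4.77. Beside Btla, Kmo, Cd226 and Flt3, the adhesion gene Nectin1 had no ductal count and was at least 63.2-fold lower. The homing receptor gene Ccr7 averaged 82.2 ± 16.2 CPM in ductal macrophages and 633 ± 435 CPM in the dendritic cells. Havcr2, which encodes TIM-3, and Adgrg5, an adhesion receptor, were the 2 higher members, at 1234 ± 49.5 against 452 ± 137 CPM and 168 ± 32.5 against 37.5 ± 2.1 CPM in ductal macrophages against dendritic cells. Among genes of type 1 dendritic cells and cross-presentation, 2 of 26 tested members were higher, 18 were lower and 6 did not pass the test, with a median of -3.35. Xcr1, the receptor for the CD8 T cell chemokine XCL1, had 7.74 and 5.11 CPM in ductal macrophages, against 223 and 378 CPM in CD103+ and 225 and 258 CPM in CD103- dendritic cells (log2 fold change -5.40 ± 0.59). Clec9a, the receptor for exposed actin of dead cells, had 8.43 and 10.8 CPM in ductal macrophages, against 196 and 269.6 CPM in CD103+ and 159.8 and 194 CPM in CD103- dendritic cells (log2 fold change -4.39 ± 0.35). Low but non-zero values of Xcr1 and Clec9a were found in both ductal libraries. Itgae, one of the sorting markers, had 0 and 0.757 CPM in ductal macrophages, against 158 and 172 CPM in CD103+ and 9.39 and 3.80 CPM in CD103- dendritic cells. Its level separated the CD103+ from the CD103- libraries as their labels say. Wdfy4 and Naaa, genes of cross-presentation and of lipid amide breakdown, averaged 60.7 ± 0.517 CPM in ductal macrophages and 960.4 ± 289.7 CPM in the dendritic cells, and 29.4 ± 5.20 CPM in ductal macrophages and 1061 ± 279 CPM in the dendritic cells. Ly75, the endocytic receptor DEC-205, averaged 1.21 ± 0.426 CPM in ductal macrophages and 68.3 ± 30.5 CPM in the dendritic cells. The 2 higher members were Cadm1, an adhesion molecule, at 680.4 ± 52.1 against 310.3 ± 159 CPM, and Tlr12, a receptor for profilin, at 321 ± 19.97 against 21.9 ± 2.63 CPM, and leaving out either ductal library left 1 of them called.

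Genes known from type 2 (CD11b+) dendritic cells were mostly higher in ductal macrophages than in CD11b- dendritic cells. Itgam, which encodes CD11b itself, was low in all 6 libraries, with 7.74 and 9.27 CPM in ductal macrophages, against 9.45 and 7.28 CPM in CD103+ and 10.8 and 11.4 CPM in CD103- dendritic cells (log2 fold change -0.18 ± 0.23, adjusted p = 0.605), and was called lower under scaling by total counts alone (adjusted p = 0.0274). Itgax, the CD11c chain, had 847 and 610.2 CPM in ductal macrophages, against 162 and 146 CPM in CD103+ and 116 and 91.8 CPM in CD103- dendritic cells (log2 fold change 2.53 ± 0.25, adjusted p = 2.29e-05). CD11c transcript was thus higher in the macrophages than in the dendritic cells. Of the list, 9 of 15 tested members were higher, 2 were lower and 4 did not pass the test, with a median of 3.53. Sirpa, the receptor for the "do not eat me" ligand CD47, and Cx3cr1, the fractalkine receptor, averaged 666 ± 195 CPM in ductal macrophages and 11.8 ± 5.24 CPM in the dendritic cells, and 585 ± 9.73 CPM in ductal macrophages and 7.96 ± 5.31 CPM in the dendritic cells. The C-type lectin Mgl2 and the membrane protein Tmem176a differed by 4.28 ± 0.24 and 4.47 ± 0.28. Cd209a, a DC-SIGN homologue, and Klf4 were lower. For genes of mature, migrating dendritic cells, the counts differed between the dendritic cell populations. Against CD103+ cells alone, 1 of 24 tested members was higher and 15 were lower, beside 12.5% and 11.4% over all genes. Against CD103- cells alone, 4 were higher and 8 were lower, beside 12.2% and 10.7% over all genes. Against both populations, 2 were higher, 14 were lower and 8 did not pass the test (median -1.78). Fscn1, the actin bundler of mature dendritic cells, averaged 5.19 ± 2.83 CPM in ductal macrophages and 221 ± 277 CPM in the dendritic cells, and Cacnb3, a calcium channel subunit, averaged 0.739 ± 0.243 CPM in ductal macrophages and 101 ± 97.9 CPM in the dendritic cells. The higher members were Cd86 and Cd274, given with the costimulatory genes below, and 1 member was called higher without ductal replicate 1, CD103+ replicate 1 or either CD103- library.

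**Figure D3:**
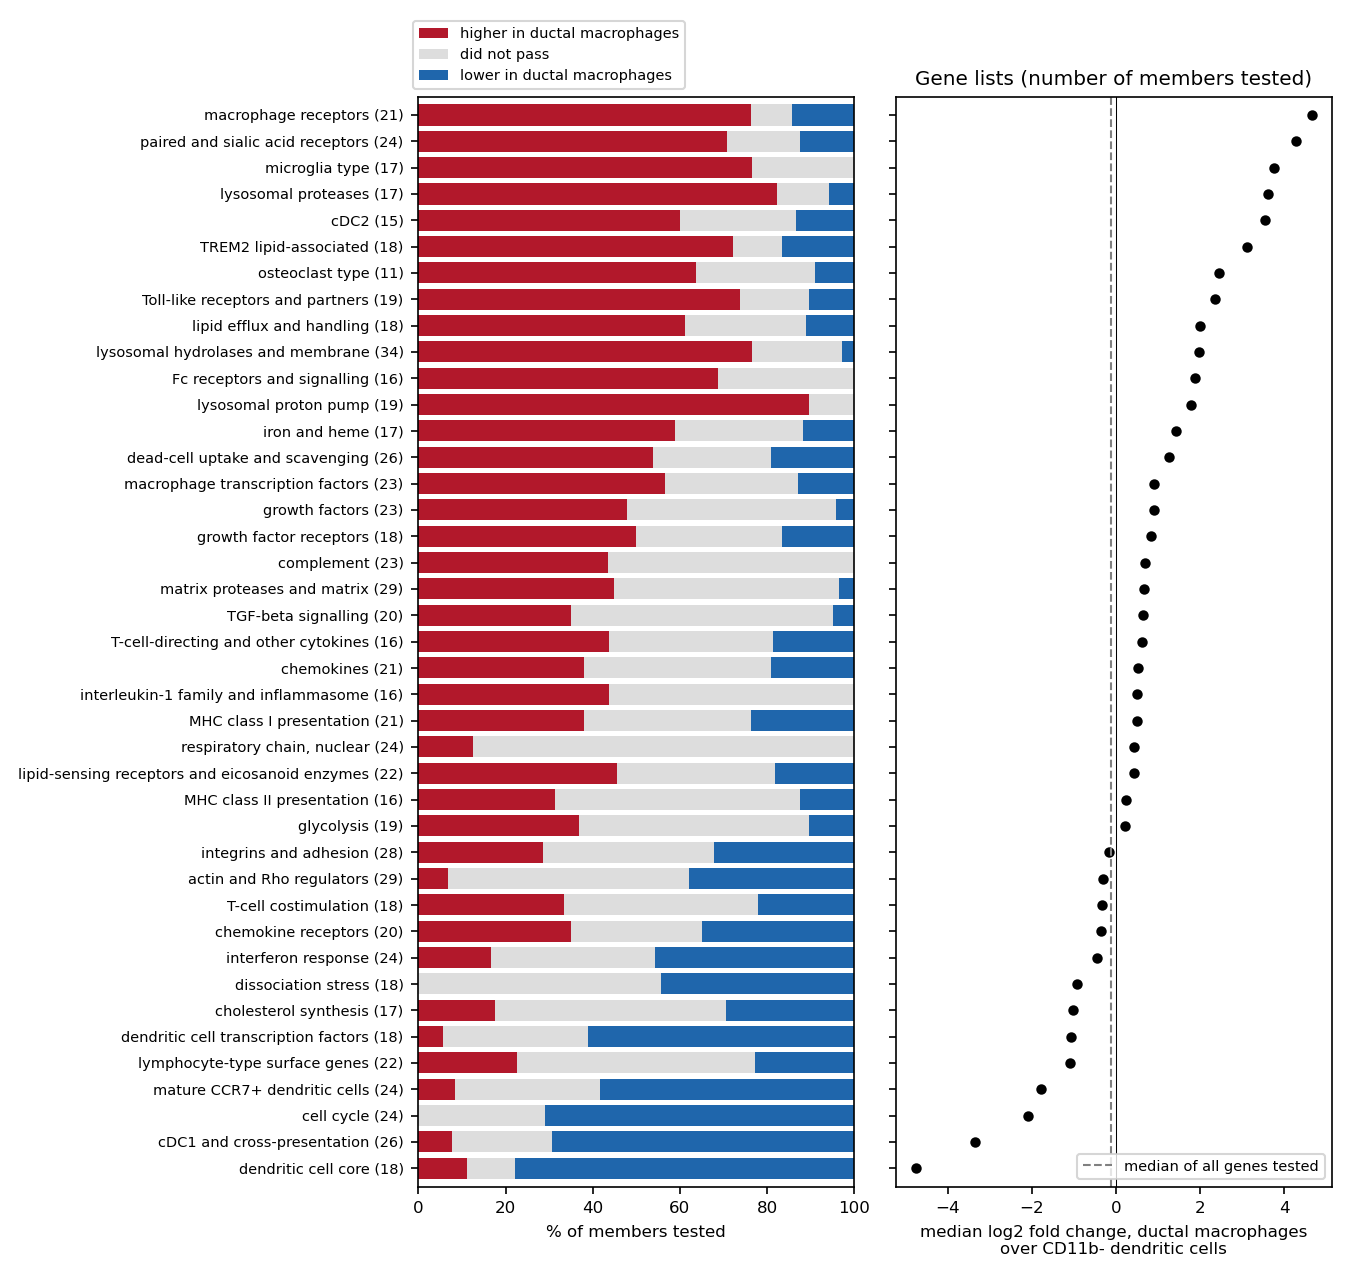
For each of the 41 gene lists, down the page with the number of members tested in brackets, the left panel gives the percent of members higher (red), not passing (grey) and lower (blue) in ductal macrophages. The right panel gives the median log2 fold change, with the median of all genes dashed. Macrophage receptors, lysosomal genes and Toll-like receptors lie on the higher side, and dendritic cell core, type 1 dendritic cell and cell cycle genes on the lower side.

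Genes of complement, of Fc receptors and of receptors for dead material were more often higher than lower in ductal macrophages. In the complement list, 10 of 23 tested members were higher, 0 were lower and 13 did not pass the test. Besides C1q, the C3a receptor gene C3ar1 averaged 459 ± 23.5 CPM in ductal macrophages and 10.3 ± 3.19 CPM in the dendritic cells, C3 itself averaged 134 ± 58.9 CPM in ductal macrophages and 25.4 ± 13.5 CPM in the dendritic cells, and Cfb, factor B of the alternative pathway, averaged 83 ± 31.8 CPM in ductal macrophages and 13.7 ± 8.56 CPM in the dendritic cells. C5ar2, the second C5a receptor, differed by 6.56 ± 0.58. Complement regulators Cd55, Cd59a and Serping1 did not pass the test. Although no complement gene was lower, 3 were called lower without ductal replicate 2. Among Fc receptors and their signalling partners, 11 of 16 tested members were higher, 0 were lower and 5 did not pass the test, and 1 was called lower without CD103+ replicate 1. Fcgr3, a low-affinity activating receptor, had 472 and 674 CPM in ductal macrophages, against 7.54 and 10.6 CPM in CD103+ and 4.76 and 3.80 CPM in CD103- dendritic cells, and Fcgr4 had 115 and 195 CPM in ductal macrophages, against 3.97 and 8.39 CPM in CD103+ and 4.07 and 3.21 CPM in CD103- dendritic cells. The inhibitory receptor gene Fcgr2b averaged 144 ± 18.3 CPM in ductal macrophages and 228 ± 56.6 CPM in the dendritic cells and did not pass (adjusted p = 0.109). The shared signalling chain Fcer1g and the adaptor Lcp2 differed by 3.03 ± 0.27 and 3.09 ± 0.20, and the kinases Syk and Lyn by 1.92 ± 0.19 and 1.28 ± 0.21.

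For receptors of dead cells and scavengers, 14 of 26 tested members were higher, 5 were lower and 7 did not pass the test (median 1.26). Axl, a TAM receptor like MERTK, had 2341 and 1869 CPM in ductal macrophages, against 74.4 and 67.5 CPM in CD103+ and 37.1 and 16.8 CPM in CD103- dendritic cells (log2 fold change 5.59 ± 0.31, adjusted p = 5.42e-07). Itgb5, the integrin beta chain that binds bridging molecules of dead cells, had 1351 and 984 CPM in ductal macrophages, against 18.3 and 13.7 CPM in CD103+ and 16.1 and 6.97 CPM in CD103- dendritic cells (log2 fold change 6.43 ± 0.36). Stab1 and Stab2, the stabilin scavengers, differed by 5.82 ± 0.43 and 5.83 ± 0.80. All of these were far above the dendritic cell range. The 5 lower members were Timd4, Havcr1 (at least 16.6-fold), Cd163, Itgb3 and Mfge8, of which Timd4 and Havcr1 encode phosphatidylserine receptors and Mfge8 a bridging protein. Mfge8 averaged 70.4 ± 32.9 CPM in ductal macrophages and 231 ± 105 CPM in the dendritic cells. Without ductal replicate 1, 3 members were called lower.

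Lysosomal genes were higher in ductal macrophages across 3 lists. Of lysosomal proteases and their inhibitors, 14 of 17 tested members were higher, 1 was lower and 2 did not pass the test, with a median of 3.61. Ctsd, cathepsin D, had 3948 and 2064 CPM in ductal macrophages, against 182 and 107 CPM in CD103+ and 82.9 and 55.9 CPM in CD103- dendritic cells (log2 fold change 4.91 ± 0.35, adjusted p = 2.4e-06). Lgmn, the asparagine-specific protease legumain, had 2376 and 2467 CPM in ductal macrophages, against 93.7 and 119 CPM in CD103+ and 91.3 and 90.1 CPM in CD103- dendritic cells (log2 fold change 4.62 ± 0.21). Ctsb, cathepsin B, had 12556 and 9652 CPM in ductal macrophages, against 505 and 713 CPM in CD103+ and 571 and 424 CPM in CD103- dendritic cells (log2 fold change 4.33 ± 0.30). Every one of these ductal values was more than 10-fold above the highest dendritic cell value. Ctss, the cathepsin that trims the invariant chain, averaged 9238 ± 44.4 CPM in ductal macrophages and 503 ± 149.8 CPM in the dendritic cells, and Ctsz averaged 6538 ± 1269.6 CPM in ductal macrophages and 525 ± 139 CPM in the dendritic cells. The single lower member was Cst3, the secreted cathepsin inhibitor cystatin C, with 3051 and 3779.7 CPM in ductal macrophages, against 6151 and 11082 CPM in CD103+ and 7435 and 6160.2 CPM in CD103- dendritic cells (log2 fold change -1.16 ± 0.36, adjusted p = 0.0329). The Cst3 call was lost on leaving out either ductal library (adjusted p = 0.24 and 0.107), and also on leaving out CD103+ replicate 2 (0.0626) or CD103- replicate 1 (0.0641). Together the proteases took 3.62% and 3.30% of counts in ductal macrophages, against 1.16% and 1.61% in CD103+ and 1.21% and 1.04% in CD103- dendritic cells.

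Of lysosomal hydrolases and membrane proteins, 26 of 34 tested members were higher, 1 was lower and 7 did not pass the test (median 1.98).

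Pla2g15, the lysosomal phospholipase, averaged 164 ± 31.3 CPM in ductal macrophages and 2.28 ± 0.749 CPM in the dendritic cells (log2 fold change 6.20 ± 0.30). Lamp1, a major lysosomal membrane glycoprotein, had 2308 and 1901 CPM in ductal macrophages, against 193 and 286 CPM in CD103+ and 196 and 163 CPM in CD103- dendritic cells (log2 fold change 3.34 ± 0.25). Cd63, a tetraspanin of late endosomes, and Acp2, the lysosomal acid phosphatase, differed by 4.30 ± 0.23 and 3.85 ± 0.28. The lower member was Arsb, a sulfatase of dermatan sulfate breakdown, at 22.3 ± 2.92 against 192 ± 64.1 CPM in ductal macrophages against dendritic cells. Among subunits and partners of the proton pump that acidifies lysosomes, 17 of 19 tested members were higher, 0 were lower and 2 did not pass the test (median 1.78). Atp6v0c, Atp6v1a and Atp6v1c1 differed by 2.46 ± 0.20, 2.26 ± 0.28 and 2.32 ± 0.23, and Clcn7, the lysosomal chloride exchanger, by 2.46 ± 0.25. Atp6v0d2, the largest difference among pump genes, was scarce, at 1.82 ± 0.969 against 0.126 ± 0.147 CPM in ductal macrophages against dendritic cells, and its call was lost without ductal replicate 1 (adjusted p = 0.206).

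Many lysosomal genes carry the E-box CACGTG, the core of the motif read by TFEB, TFE3 and MITF. In windows from 250 bases before to 50 after the RefSeq start (GRCm38), both strands searched, 33.3% of the 54 lysosomal genes with a window held it, counting every window of a gene with several starts. Among all 11766 tested genes with a window the share was 11.3%, among genes called higher 15% and among genes called lower 9.24%. High shares were not limited to lysosomal genes, with 27.3% for cholesterol synthesis and 25% for lipid efflux and handling. Macrophage receptors held it at 0%. The 120 bases before a RefSeq start are shown for 3 lysosomal genes that hold the motif, with the E-box in capitals, because they are higher members from each kind of lysosomal gene. Lgmn, a protease, is at chr12:102439093-102439212 on the minus strand, Lamp1, a membrane protein with 4 copies of the motif, at chr8:13159041-13159160 on the plus strand, and Clcn7, a partner of the pump, at chr17:25133271-25133390 on the plus strand.
Lgmn: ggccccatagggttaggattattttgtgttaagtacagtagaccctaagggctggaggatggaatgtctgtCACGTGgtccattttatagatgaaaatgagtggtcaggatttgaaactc
Lamp1: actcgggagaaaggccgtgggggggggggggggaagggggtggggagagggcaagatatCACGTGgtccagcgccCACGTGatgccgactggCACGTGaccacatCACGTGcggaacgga
Clcn7: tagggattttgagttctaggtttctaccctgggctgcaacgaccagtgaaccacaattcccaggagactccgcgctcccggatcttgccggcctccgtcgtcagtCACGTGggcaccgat
Lgmn has a second RefSeq start, and the stretch shown precedes the one that lies inside the gene. The motif is a description of these letters and not evidence of binding.

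**Figure D4:**
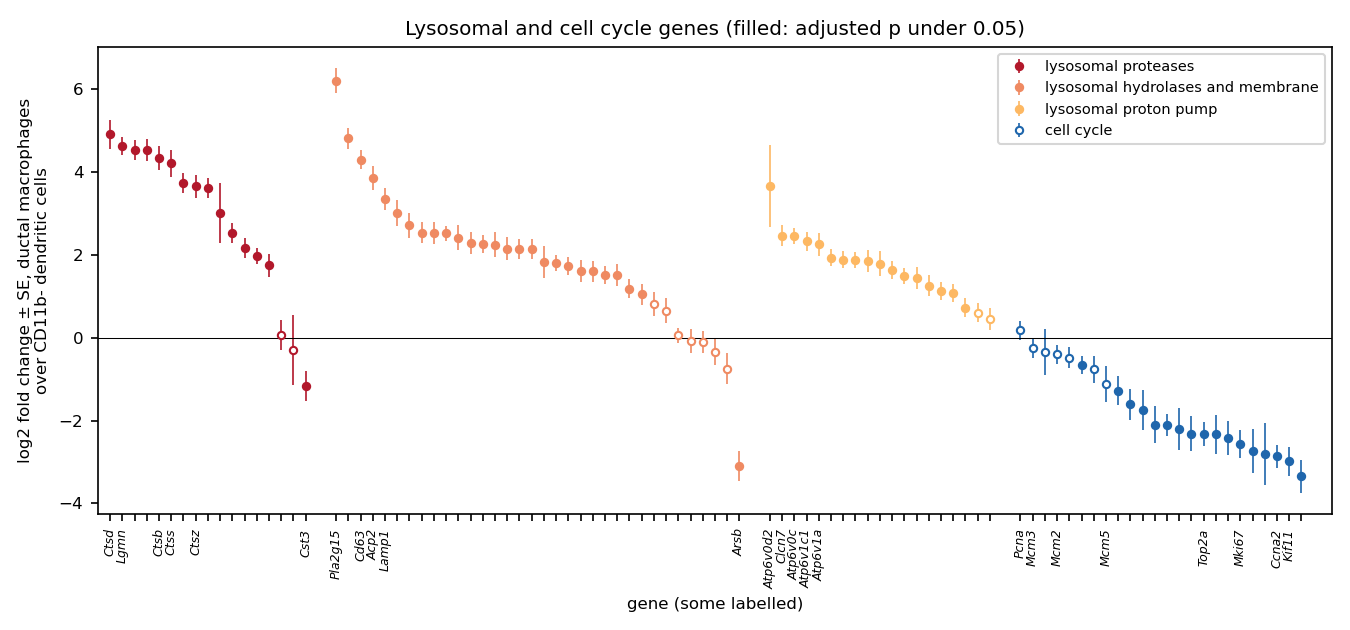
Log2 fold change of ductal macrophages over CD11b- dendritic cells (vertical axis, points, with bars of ± 1 SE) for each tested member of the 3 lysosomal lists and the cell cycle list, ordered by value within a list, with some members labelled by name; filled points passed the test. Most lysosomal genes lie above 0, with Arsb and Cst3 below, and most cell cycle genes lie below 0.

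Genes shared with specialised macrophages were also higher. Of osteoclast-type genes, 7 of 11 tested members were higher, 1 was lower and 3 did not pass the test, and 0 were called lower without either ductal library or by limma-voom. Acp5, tartrate-resistant acid phosphatase, had 2641 and 1796 CPM in ductal macrophages, against 24.7 and 15.6 CPM in CD103+ and 6.77 and 5.74 CPM in CD103- dendritic cells (log2 fold change 7.63 ± 0.32, adjusted p = 1.55e-07). Dcstamp and Ocstamp, fusion proteins of osteoclasts, averaged 331 ± 46.3 CPM in ductal macrophages and 48.96 ± 34.8 CPM in the dendritic cells, and 366 ± 15.6 CPM in ductal macrophages and 46.2 ± 9.76 CPM in the dendritic cells. Ctsk, the main collagen-degrading cathepsin of bone, averaged 5.66 ± 1.89 CPM in ductal macrophages and 5.96 ± 2.82 CPM in the dendritic cells and did not pass. For microglia-type genes, 13 of 17 tested members were higher, 0 were lower and 4 did not pass the test (median 3.76), and 1 was called lower without ductal replicate 2 or CD103- replicate 2. Olfml3, a secreted olfactomedin-like protein, had 756 and 686 CPM in ductal macrophages, against 8.65 and 3.92 CPM in CD103+ and 4.35 and 0.498 CPM in CD103- dendritic cells (log2 fold change 7.57 ± 0.58). Tmem119, a membrane protein used to mark microglia, had 279.9 and 354 CPM in ductal macrophages, against 6.03 and 3.33 CPM in CD103+ and 2.69 and 2.94 CPM in CD103- dendritic cells (log2 fold change 6.44 ± 0.28). Siglech, known from microglia and plasmacytoid dendritic cells, averaged 204 ± 20.5 CPM in ductal macrophages and 4.56 ± 3.21 CPM in the dendritic cells. Plasmacytoid dendritic cell markers, Siglech among them, summed to 704 and 793 CPM in ductal macrophages and 361 to 387 CPM in the dendritic cells. Bst2 of that list had 316 and 405 CPM in ductal macrophages, against 77 and 90.8 CPM in CD103+ and 88.3 and 91.5 CPM in CD103- dendritic cells, while Spib had no ductal count, and their part in the Siglech values was not tested. For Olfml3, Tmem119 and Siglech both ductal libraries were above every dendritic cell library.

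Among genes of TREM2-positive lipid-associated macrophages, 13 of 18 tested members were higher, 3 were lower and 2 did not pass the test (median 3.12). Apoe, the lipid carrier apolipoprotein E (gene ID 11816, chr7:19696244-19701310, GRCm38), had 40236 and 37330 CPM in ductal macrophages, against 295 and 181 CPM in CD103+ and 219.8 and 86.6 CPM in CD103- dendritic cells (log2 fold change 7.67 ± 0.48, adjusted p = 1.05e-06). Clec7a, the beta-glucan receptor dectin-1, averaged 1795 ± 334 CPM in ductal macrophages and 38.4 ± 23.95 CPM in the dendritic cells, and Lpl, lipoprotein lipase, averaged 315 ± 75.3 CPM in ductal macrophages and 15.03 ± 6.94 CPM in the dendritic cells. The 3 lower members were Spp1, Cd9 and Fabp4, with 6.46 ± 0.847 against 123 ± 41.2 CPM, 82.8 ± 20.1 against 399.7 ± 102.9 CPM and 89.4 ± 65.2 against 367 ± 119 CPM in ductal macrophages against dendritic cells. Fabp4 is also an adipocyte gene, and adipocyte markers summed to 5.01 and 14.6 CPM in ductal macrophages and 34.8 to 89.2 CPM in dendritic cells. Of lipid efflux and handling genes, 11 of 18 tested members were higher, 2 were lower and 5 did not pass the test. Abca1, the cholesterol exporter, had 756 and 675 CPM in ductal macrophages, against 36.1 and 17.7 CPM in CD103+ and 21.1 and 14.5 CPM in CD103- dendritic cells (log2 fold change 5.03 ± 0.36). Soat1, which esterifies cholesterol for storage, and Plin2, the coat protein of lipid droplets, differed by 3.20 ± 0.22 and 3.18 ± 0.21. Without ductal replicate 1 no lipid handling gene was called lower, and without CD103+ replicate 1 there was 1. Of cholesterol synthesis genes, 3 of 17 tested members were higher, 5 were lower and 9 did not pass the test, beside 15.4% higher and 13.0% lower over all genes. Srebf2, the master regulator of the pathway, averaged 84.7 ± 13.5 CPM in ductal macrophages and 356 ± 80.1 CPM in the dendritic cells. Total counts and the test against a fold of 2 gave 0 higher, and leaving out ductal replicate 1 gave 0 higher and 3 lower, and 3 were lower without ductal replicate 2 or CD103- replicate 1.

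Proteases and proteins of the extracellular matrix added a further group, in which 13 of 29 tested members were higher, 1 was lower and 15 did not pass the test (median 0.67). Mmp14, the membrane-anchored collagenase, had 425 and 333 CPM in ductal macrophages, against 33.9 and 23.6 CPM in CD103+ and 20.4 and 10.8 CPM in CD103- dendritic cells (log2 fold change 4.16 ± 0.30). Mmp2, gelatinase A, and Timp2, which takes part in activating MMP2, averaged 319 ± 105 CPM in ductal macrophages and 18.2 ± 8.62 CPM in the dendritic cells, and 777 ± 201 CPM in ductal macrophages and 71.6 ± 36.1 CPM in the dendritic cells. Plau, urokinase, and its receptor Plaur differed by 4.67 ± 0.36 and 3.30 ± 0.20. Mmp9 had 3 ductal counts and did not pass (adjusted p = 0.0856), but was called higher by DESeq2 (0.0183) and without ductal replicate 2 (0.0335). Adam8 was the single lower member, at 96.4 ± 12.8 against 489.6 ± 135 CPM in ductal macrophages against dendritic cells, and 2 were called lower without ductal replicate 2 or CD103- replicate 2. Fibroblasts also transcribe Mmp2 and Timp2; Col1a1 had 64.5 and 197 CPM in ductal macrophages, against 157 and 143 CPM in CD103+ and 95.5 and 49.5 CPM in CD103- dendritic cells. Their part in the Mmp2 and Timp2 values was not tested.

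The AP-1 motif TGANTCA, bound by FOS and JUN proteins, was in the window of 38.9% of the 18 matrix genes with a window. Both strands were searched, and the E-box was in the window of 2 of these 18 genes. The share was 6.79% among all tested genes, 8.28% among genes called higher and 7.55% among genes called lower. High shares were not limited to matrix genes, with 38.5% in the TREM2-positive lipid-associated list and 30.8% in the macrophage receptor list. Nor were they limited to lists mostly higher in ductal macrophages. The share was 40% for T-cell-directing and other cytokines, 33.3% for lymphocyte-type surface genes and 27.8% for interferon-response genes. Other lists held it at 0%, the cell cycle list among them. The 120 bases before a RefSeq start (GRCm38) are shown for Mmp13, Mmp12 and Plaur, higher matrix genes that hold the motif, with the motif in capitals. Mmp13 is at chr9:7272394-7272513 on the plus strand, Mmp12 at chr9:7347254-7347373 on the plus strand and Plaur at chr7:24462363-24462482 on the plus strand.
Mmp13: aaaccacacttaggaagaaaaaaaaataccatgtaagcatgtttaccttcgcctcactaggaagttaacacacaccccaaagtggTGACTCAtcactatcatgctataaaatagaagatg
Mmp12: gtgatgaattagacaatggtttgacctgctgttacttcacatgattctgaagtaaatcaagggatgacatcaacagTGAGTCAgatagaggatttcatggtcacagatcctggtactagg
Plaur: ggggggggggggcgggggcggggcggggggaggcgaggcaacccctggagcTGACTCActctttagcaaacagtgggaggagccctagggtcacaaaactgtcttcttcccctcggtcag
The Mmp12 stretch precedes the downstream of its RefSeq starts and lies inside the gene, and the Plaur stretch also lies inside the gene model given in the table of genes, downstream of its first base. Fos itself averaged 1487 ± 30.6 CPM in ductal macrophages and 2636 ± 638 CPM in the dendritic cells and did not pass the test (adjusted p = 0.0605).

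Of secreted growth factors, 11 of 23 tested members were higher, 1 was lower and 11 did not pass the test (median 0.91). Osm, oncostatin M, had 241 and 259 CPM in ductal macrophages, against 1.87 and 5.11 CPM in CD103+ and 3.80 and 4.52 CPM in CD103- dendritic cells (log2 fold change 6.03 ± 0.32, adjusted p = 4.42e-07). Hgf, the epithelial scatter factor, had 55.8 and 50.5 CPM in ductal macrophages, against 3.45 and 1.70 CPM in CD103+ and 3.18 and 1.58 CPM in CD103- dendritic cells (log2 fold change 4.43 ± 0.38). Gdf15, a stress-induced factor, averaged 134 ± 103.5 CPM in ductal macrophages and 9.82 ± 5.20 CPM in the dendritic cells, and Pdgfa averaged 92.5 ± 31.3 CPM in ductal macrophages and 9.49 ± 4.96 CPM in the dendritic cells. Vegfa, the growth factor of blood vessels, averaged 129 ± 24.9 CPM in ductal macrophages and 31.7 ± 13.6 CPM in the dendritic cells. Wnt11 was the single lower member, at 11.9 ± 0.539 against 140.2 ± 31.6 CPM in ductal macrophages against dendritic cells, and 3 members were lower without CD103- replicate 2. Csf1, Areg and Igf1 did not pass. In the TGF-beta list, 7 of 20 tested members were higher, 1 was lower and 12 did not pass the test. Tgfb1 and Tgfb3 differed by 1.71 ± 0.20 and 1.75 ± 0.33, the receptors as given above, and Ski, an inhibitor of SMAD signalling, by 2.21 ± 0.21. The SMAD genes did not pass, and Lrrc32, which tethers latent TGF-beta to the cell surface, was lower at 19.5 ± 14.98 against 72.3 ± 28.3 CPM. The Lrrc32 call was lost without ductal replicate 1 (adjusted p = 0.254), CD103+ replicate 1 (0.078) or CD103- replicate 1 (0.066), and 2 members were lower without CD103- replicate 2.

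Chemokines differed in both directions. Against CD103+ cells alone, 8 of 21 tested members were higher and 5 were lower, beside 12.5% and 11.4% over all genes. Against CD103- cells alone, 8 were higher and only 1 was lower, beside 12.2% and 10.7% over all genes. Against both populations, 8 were higher, 4 were lower and 9 did not pass the test. The median of 0.53 turned to -0.09 under scaling by total counts and to -0.30 without ductal replicate 2. Cxcl2, a neutrophil attractant, had 1922 and 2304 CPM in ductal macrophages, against 168 and 157 CPM in CD103+ and 77.3 and 52.1 CPM in CD103- dendritic cells (log2 fold change 4.36 ± 0.26). Ccl3 and Ccl9 averaged 295 ± 55.7 CPM in ductal macrophages and 23.3 ± 7.83 CPM in the dendritic cells, and 119 ± 23.8 CPM in ductal macrophages and 8.85 ± 2.41 CPM in the dendritic cells, and Ccl12, a monocyte attractant, averaged 27.4 ± 12.9 CPM in ductal macrophages and 0.276 ± 0.161 CPM in the dendritic cells. Lower were Ccl5, Ccl17, Ccl22 and Cxcl9, attractants of T cells, at 15.5 ± 1.33 against 201 ± 284 CPM, 9.20 ± 6.25 against 47.6 ± 36.5 CPM, 41.7 ± 5.76 against 316 ± 298 CPM and 21.8 ± 8.25 against 147 ± 52.7 CPM in ductal macrophages against dendritic cells. Only 1 was called lower without ductal replicate 1, and Ccl5 was lost without either ductal library (adjusted p = 0.104 and 0.0739). Among chemokine receptors, 7 of 20 tested members were higher, 7 were lower and 6 did not pass the test. Ccr1 had 568 and 617 CPM in ductal macrophages, against 34.3 and 11.3 CPM in CD103+ and 1.80 and 4.12 CPM in CD103- dendritic cells (log2 fold change 6.15 ± 0.45), and Cmklr1, the chemerin receptor, averaged 21.8 ± 6.64 CPM in ductal macrophages and 0.482 ± 0.323 CPM in the dendritic cells. Ccr2, the receptor of monocytes, averaged 76.6 ± 24.7 CPM in ductal macrophages and 304 ± 109 CPM in the dendritic cells. Cxcr5, a B cell homing receptor, had 0 and 0 CPM in ductal macrophages, against 0.278 and 0.673 CPM in CD103+ and 1.38 and 8.37 CPM in CD103- dendritic cells. It was at least 8.49-fold lower, but its call was lost without any of 5 libraries, with adjusted p up to 0.195.

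Adhesion genes differed in both directions: 8 of 28 tested members were higher, 9 were lower and 11 did not pass the test. Vcam1, an adhesion molecule bound by integrin alpha 4, had 3250.1 and 3439 CPM in ductal macrophages, against 35.3 and 30.4 CPM in CD103+ and 21.3 and 12.2 CPM in CD103- dendritic cells (log2 fold change 7.16 ± 0.28, adjusted p = 1.29e-07). Itga9 and Itgb5 were higher, by 5.68 ± 0.35 and 6.43 ± 0.36. Itgb7, Itgae, Itga4 and Itga1 were lower, Itga4 at 58.2 ± 6.98 against 211 ± 42.1 CPM and Itga1 at 4.81 ± 0.685 against 40.5 ± 10.5 CPM in ductal macrophages against dendritic cells. The genes of both possible alpha partners of integrin beta 7, Itgae and Itga4, were lower together with Itgb7.

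Antigen presentation by MHC class II took a large share of both transcriptomes, and the larger share in ductal macrophages. The class II list held 16.2% and 16.5% of counts in ductal macrophages, against 7.37% and 10.7% in CD103+ and 8.84% and 6.75% in CD103- dendritic cells. Cd74, the invariant chain that guards the peptide groove, had 117840 and 113570 CPM in ductal macrophages, against 22067 and 40531 CPM in CD103+ and 29506 and 22494 CPM in CD103- dendritic cells (log2 fold change 2.02 ± 0.39, adjusted p = 0.00271). H2-Ab1, a beta chain, had 48953 and 45948 CPM in ductal macrophages, against 15196 and 27421 CPM in CD103+ and 21247 and 16231 CPM in CD103- dendritic cells (log2 fold change 1.25 ± 0.38, adjusted p = 0.0296). H2-Aa and H2-Eb1 differed by 1.03 ± 0.32 and 1.08 ± 0.33. Ifi30, a thiol reductase that cuts the disulfide bonds of antigens in lysosomes, averaged 575 ± 156 CPM in ductal macrophages and 182 ± 52.5 CPM in the dendritic cells. Of the list, 5 of 16 tested members were higher, 2 were lower and 9 did not pass the test, beside 15.4% higher and 13.0% lower over all genes. The list median of 0.23 turned to -0.37 under total counts. The lower members were H2-Ob and H2-DMb2, chains of the peptide editors DO and DM, at 27.7 ± 2.07 against 246 ± 59.4 CPM and 41.3 ± 3.51 against 84.1 ± 11.7 CPM in ductal macrophages against dendritic cells. Ciita, the class II transactivator, averaged 127 ± 17.3 CPM in ductal macrophages and 178 ± 30.98 CPM in the dendritic cells and did not pass. The calls of H2-Aa, H2-Ab1 and H2-Eb1 were lost without ductal replicate 1 (adjusted p = 0.189, 0.156 and 0.169), ductal replicate 2 (0.118, 0.102 and 0.109), CD103+ replicate 1 (0.0661, 0.0515 and 0.0625) or CD103- replicate 2 (0.0796, 0.0688 and 0.0753), and under total counts (0.173, 0.0889 and 0.148). The H2-Aa call was also lost without CD103- replicate 1 (0.0539). Only 2 members were called higher without ductal replicate 1, ductal replicate 2, CD103+ replicate 1 or CD103- replicate 2. Reads of related H2 genes may be shared between them.

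**Figure D5:**
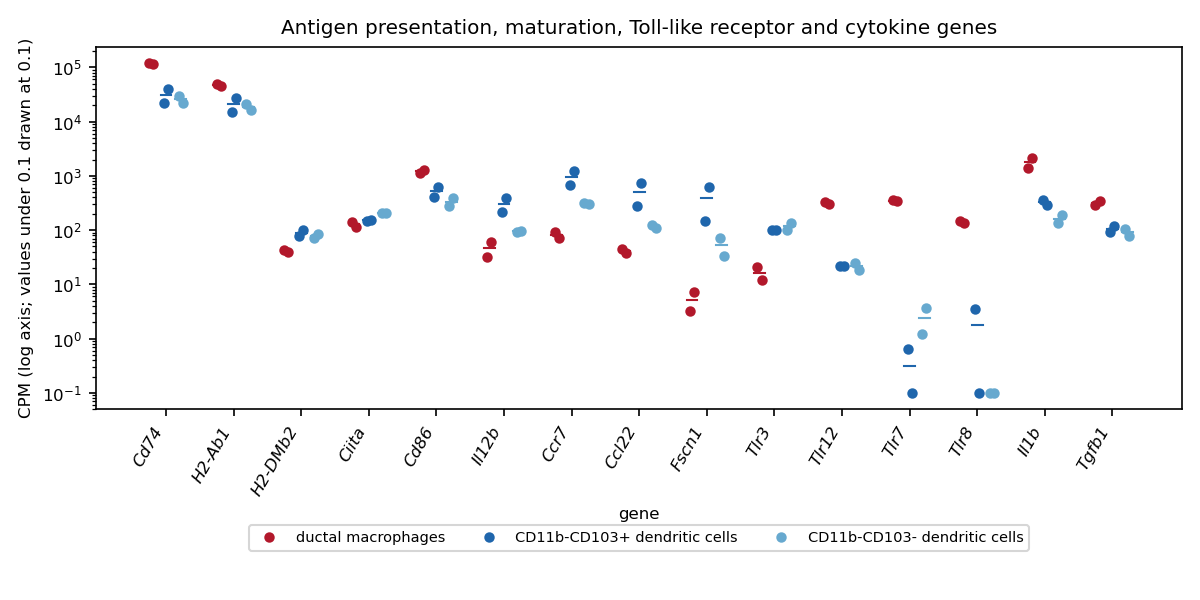
CPM (log axis, values under 0.1 drawn at 0.1) of genes of antigen presentation, maturation, Toll-like receptors and cytokines, with ductal macrophages left of CD103+ and CD103- dendritic cells; points are libraries and bars are means of 2. Cd74, Cd86, Tlr7 and Il1b are higher in both ductal libraries, while Ccr7, Fscn1, Ccl22 and Tlr3 are lower.

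MHC class I genes divided by step. B2m, the light chain, averaged 5403 ± 246 CPM in ductal macrophages and 2053 ± 1010.5 CPM in the dendritic cells (log2 fold change 1.45 ± 0.31), and H2-M2, a non-classical heavy chain, averaged 1498 ± 34.6 CPM in ductal macrophages and 84.03 ± 126 CPM in the dendritic cells (log2 fold change 5.13 ± 0.53). Calr, Canx and Pdia3, chaperones of the endoplasmic reticulum, differed by 1.04 ± 0.20, 1.39 ± 0.29 and 1.07 ± 0.30. Tap1 and Tap2, which pump peptides into the endoplasmic reticulum, had lower levels, at 72.7 ± 14.1 against 339 ± 61.8 CPM and 109.5 ± 1.64 against 262 ± 38.6 CPM in ductal macrophages against dendritic cells. Psmb9, an immunoproteasome subunit, averaged 99.9 ± 6.23 CPM in ductal macrophages and 322 ± 64.4 CPM in the dendritic cells. In all, 8 of 21 tested members were higher, 5 were lower and 8 did not pass the test, and the median of 0.50 turned to -0.11 under total counts. Higher members numbered 4 without ductal replicate 1 and 5 without CD103+ replicate 1, and lower members 3 without ductal replicate 2 and 8 without CD103+ replicate 1. Of costimulatory and checkpoint genes, 6 of 18 tested members were higher, 4 were lower and 8 did not pass the test. Cd86, a ligand of CD28, had a higher level, at 1216 ± 129 against 429 ± 149.8 CPM in ductal macrophages against dendritic cells, and Lgals9, a ligand of TIM-3, was at 890.4 ± 106 against 96.5 ± 8.64 CPM. Cd274, which encodes PD-L1, and Vsir, which encodes VISTA, differed by 0.94 ± 0.28 and 1.81 ± 0.24. Cd40 and Cd80 did not pass, and Pdcd1lg2, which encodes PD-L2, was lower at 1.19 ± 0.887 against 6.74 ± 2.77 CPM. Without ductal replicate 2 or CD103+ replicate 2, 2 costimulatory genes were called lower, and Pdcd1lg2 was lost in both cases (adjusted p = 0.169 and 0.0735).

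Microbial sensing genes were higher as a family: 14 of 19 tested members were higher, 2 were lower and 3 did not pass the test. Tlr2, a receptor for bacterial lipoproteins, had 1185 and 1045 CPM in ductal macrophages, against 27.4 and 28.3 CPM in CD103+ and 39.98 and 20.4 CPM in CD103- dendritic cells (log2 fold change 5.27 ± 0.30, adjusted p = 6.47e-07). Tlr7, a sensor of single-stranded RNA, had 355 and 339 CPM in ductal macrophages, against 0.635 and 0 CPM in CD103+ and 1.24 and 3.66 CPM in CD103- dendritic cells (log2 fold change 8.58 ± 0.66). Its partner for endosomal transport Unc93b1 averaged 1867 ± 18.1 CPM in ductal macrophages and 703 ± 197 CPM in the dendritic cells, and Tlr1 averaged 103.03 ± 36.3 CPM in ductal macrophages and 1.63 ± 1.002 CPM in the dendritic cells. The 2 lower members were Tlr3, a sensor of double-stranded RNA, and Tlr11, a profilin receptor, at 16.3 ± 6.23 against 109.6 ± 18.4 CPM and 0.967 ± 0.565 against 46.02 ± 14.4 CPM in ductal macrophages against dendritic cells. TLR3 is the receptor through which type 1 dendritic cells sense infected cells, and it ran opposite to Tlr7 and Tlr8. Of interleukin-1 family and inflammasome genes, 7 of 16 tested members were higher, 0 were lower and 9 did not pass the test, with a median of 0.51 that turned to -0.11 under total counts and was 0.96 without CD103+ replicate 1 and 0.85 without ductal replicate 1. Il1a had 868 and 615 CPM in ductal macrophages, against 2.66 and 4.91 CPM in CD103+ and 2.90 and 3.98 CPM in CD103- dendritic cells (log2 fold change 7.67 ± 0.74). Il1b averaged 1767 ± 520.2 CPM in ductal macrophages and 245 ± 102 CPM in the dendritic cells, its antagonist Il1rn 444 ± 24.8 CPM in ductal macrophages and 8.84 ± 9.31 CPM in the dendritic cells, and the inflammasome sensor Nlrc4 58.3 ± 3.26 CPM in ductal macrophages and 0.766 ± 0.281 CPM in the dendritic cells. Among other cytokines, 7 of 16 tested members were higher, 3 were lower and 6 did not pass the test. Il10, an inhibitory cytokine, had 322 and 300.0 CPM in ductal macrophages, against 6.71 and 15.4 CPM in CD103+ and 9.46 and 10.04 CPM in CD103- dendritic cells (log2 fold change 4.90 ± 0.33), and Tnf averaged 251 ± 129.9 CPM in ductal macrophages and 15.4 ± 6.36 CPM in the dendritic cells. Il12b and Il15, which drive T and natural killer cells, were lower at 47.1 ± 20.6 against 199 ± 141 CPM and 3.73 ± 0.197 against 20.3 ± 11.9 CPM in ductal macrophages against dendritic cells. A single cytokine was called lower without ductal replicate 1.

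In the interferon-response list, 4 of 24 tested members were higher, 11 were lower and 9 did not pass the test. The shares over all genes were 15.4% higher and 13.0% lower. Stat2, a component of the interferon-activated factor ISGF3, had 19.4 and 17.02 CPM in ductal macrophages, against 204 and 174 CPM in CD103+ and 189 and 154 CPM in CD103- dendritic cells (log2 fold change -3.31 ± 0.26, adjusted p = 4.83e-06). Mx1 averaged 5.76 ± 2.80 CPM in ductal macrophages and 33.5 ± 9.14 CPM in the dendritic cells, and Oas1a, an RNA-activated antiviral enzyme, averaged 57.1 ± 0.258 CPM in ductal macrophages and 9.71 ± 3.44 CPM in the dendritic cells. The interferon-stimulated response element, searched as 2 copies of GAAA 2 bases apart, was in the window of 50% of the 18 response genes with one, against 3.94% of all tested genes. Its share was 4.38% among genes called higher and 4.75% among genes called lower. An ETS motif, GAGGAAGT, was held by 4.84% of genes called higher, 4.3% of genes called lower and 3.81% of all tested genes. The ETS-IRF composite element, GGAA and GAAA 2 bases apart, was held by 2.66%, 3.65% and 2.97% of the same groups. Leaving out 1 library lowered the count of 11 lower genes to 3 (ductal replicate 1), 5 (ductal replicate 2), 6 (CD103+ replicate 1) or 7 (CD103- replicate 1). The count of higher genes fell to 1 without ductal replicate 1. Of immediate early and heat shock genes, which tissue digestion can induce, 0 of 18 tested members were higher, 8 were lower and 10 did not pass the test. Hspa1a, an inducible chaperone, averaged 179 ± 88.5 CPM in ductal macrophages and 667 ± 193 CPM in the dendritic cells, and Jund averaged 235 ± 44.4 CPM in ductal macrophages and 649 ± 141 CPM in the dendritic cells. Leaving out ductal replicate 1 left 2 called lower, and leaving out ductal replicate 2 left 4, with Hspa1a (adjusted p = 0.138) and Jund (0.0505) among those lost.

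Most genes of the mitotic cell cycle were lower in ductal macrophages: 0 of 24 tested members were higher, 17 were lower and 7 did not pass the test (median -2.1). Kif11, a spindle motor, had 13.4 and 10.6 CPM in ductal macrophages, against 61.2 and 90.7 CPM in CD103+ and 85.8 and 151 CPM in CD103- dendritic cells (log2 fold change -2.98 ± 0.34, adjusted p = 7.93e-05). Ccna2, cyclin A2, had 12.8 and 9.08 CPM in ductal macrophages, against 50.9 and 60.4 CPM in CD103+ and 90.3 and 134 CPM in CD103- dendritic cells (log2 fold change -2.86 ± 0.28). Mki67, the Ki-67 antigen, averaged 31.97 ± 5.36 CPM in ductal macrophages and 192 ± 58.1 CPM in the dendritic cells, and Top2a, topoisomerase II alpha, averaged 37.1 ± 0.630 CPM in ductal macrophages and 192 ± 70.9 CPM in the dendritic cells. The replication genes Mcm2, Mcm3, Mcm5 and Pcna did not pass. The ductal values were low but above 0, so transcripts of dividing cells were present in those libraries too. Without ductal replicate 1, 10 were called lower, and without ductal replicate 2, 9.

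Energy metabolism differed in single steps more than as a whole. Of glycolytic genes, 7 of 19 tested members were higher, 2 were lower and 10 did not pass the test, with a median of 0.21 that turned to -0.40 under total counts. Pfkp, a phosphofructokinase isoform, had 23.9 and 28.4 CPM in ductal macrophages, against 503 and 665 CPM in CD103+ and 676 and 464 CPM in CD103- dendritic cells (log2 fold change -4.46 ± 0.30), the largest difference in the list. Aldoa, aldolase A, averaged 623 ± 137 CPM in ductal macrophages and 233 ± 32.3 CPM in the dendritic cells, and Pfkfb3, a regulator of the pathway, averaged 351 ± 46.6 CPM in ductal macrophages and 147 ± 70.9 CPM in the dendritic cells. Gapdh and Pgk1 had few counts in every library, and both have many near-identical copies in the genome. Leaving out ductal replicate 1, 2 glycolytic genes were called higher and 1 lower. Of nuclear genes of the respiratory chain, 3 of 24 tested members were higher, 0 were lower and 21 did not pass the test. Over all genes, 15.4% were higher and 13.0% lower. The list median of 0.44 turned to -0.17 under total counts. The 3 members were Sdha, Sdhb and Cox5a, which lost their calls without ductal replicate 1 (adjusted p = 0.0513, 0.0615 and 0.0836). Without ductal replicate 2, 1 was called.

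Of iron and heme genes, 10 of 17 tested members were higher, 2 were lower and 5 did not pass the test. Slc40a1, the iron exporter ferroportin, had 98.4 and 130.3 CPM in ductal macrophages, against 0.278 and 0.554 CPM in CD103+ and 0.276 and 0.317 CPM in CD103- dendritic cells (log2 fold change 8.31 ± 0.34, adjusted p = 1.29e-07). Hmox1, which breaks down heme, had 600.0 and 274 CPM in ductal macrophages, against 35.5 and 21.7 CPM in CD103+ and 28.7 and 19.9 CPM in CD103- dendritic cells (log2 fold change 4.05 ± 0.36). Fth1, ferritin heavy chain, averaged 12795 ± 408 CPM in ductal macrophages and 1267 ± 274 CPM in the dendritic cells, and the endosomal iron transporter Slc11a1 averaged 528 ± 128 CPM in ductal macrophages and 41.4 ± 12.8 CPM in the dendritic cells. The importer gene Tfrc, the transferrin receptor, was lower at 15.2 ± 1.52 against 43.3 ± 14.6 CPM. Genes of storage, release and heme breakdown were higher together, and the importer Tfrc and the scavenger Cd163 were the lower members, of which 1 was called without ductal replicate 1. Of lipid-sensing receptors and eicosanoid enzymes, 10 of 22 tested members were higher, 4 were lower and 8 did not pass the test, with a median of 0.44 that turned to -0.18 under total counts. Pla2g7, which inactivates platelet-activating factor, had 821 and 595 CPM in ductal macrophages, against 6.15 and 9.70 CPM in CD103+ and 4.49 and 2.31 CPM in CD103- dendritic cells (log2 fold change 7.10 ± 0.36). Hpgds, prostaglandin D synthase of haematopoietic cells, averaged 515 ± 26.6 CPM in ductal macrophages and 5.80 ± 2.23 CPM in the dendritic cells, and Ptgs1 and Ptgs2, the cyclooxygenases, differed by 4.14 ± 0.41 and 3.74 ± 0.35. Alox5ap, the partner of 5-lipoxygenase, was lower at 21.4 ± 3.19 against 253 ± 62.9 CPM.

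Cytoskeletal regulators included genes high in dendritic cells: 2 of 29 tested members were higher, 11 were lower and 16 did not pass the test. The count of higher members fell to 1 without ductal replicate 1, ductal replicate 2, CD103+ replicate 1 or CD103- replicate 1, and also by limma-voom and under upper-quartile or total-count scaling. Lsp1, an actin-binding leukocyte protein, had 28.5 and 44.1 CPM in ductal macrophages, against 1313 and 2334 CPM in CD103+ and 2089 and 1792 CPM in CD103- dendritic cells (log2 fold change -5.69 ± 0.43, adjusted p = 3.76e-06). Crip1, a small LIM protein, averaged 35.2 ± 15.3 CPM in ductal macrophages and 1038 ± 268 CPM in the dendritic cells, and Iqgap2, a scaffold, averaged 3.51 ± 1.48 CPM in ductal macrophages and 128 ± 20.4 CPM in the dendritic cells. Actb, Pfn1 and Cfl1, the general actin machinery, did not pass, at log2 fold changes of 0.19 ± 0.28, 0.45 ± 0.23 and 0.24 ± 0.25. Of surface genes better known from lymphocytes, 5 of 22 tested members were higher, 5 were lower and 12 did not pass the test. Cd4, the coreceptor of helper T cells, had 259 and 149 CPM in ductal macrophages, against 1.87 and 2.77 CPM in CD103+ and 2.28 and 1.99 CPM in CD103- dendritic cells (log2 fold change 6.51 ± 0.32). Klrk1, the activating receptor NKG2D, had 2.05 and 0.946 CPM in ductal macrophages, against 104 and 197 CPM in CD103+ and 155 and 203 CPM in CD103- dendritic cells (log2 fold change -6.80 ± 0.47). The T cell receptor chain Cd3e had 0 and 0.757 CPM in ductal macrophages, against 0.437 and 1.58 CPM in CD103+ and 0.759 and 0.769 CPM in CD103- dendritic cells. T cell markers, Cd3e among them, summed to 315 and 325 CPM in ductal macrophages and 19.9 to 35.1 CPM in the dendritic cells. Most of the ductal sum came from Il7r, with 313 and 320 CPM in ductal macrophages, against 24 and 22.6 CPM in CD103+ and 7.94 and 12.1 CPM in CD103- dendritic cells. The part of T cells in the Cd4 and Klrk1 values was not tested. Paired immunoglobulin-like, sialic acid and lectin receptors were mostly higher: 17 of 24 tested members were higher, 3 were lower and 4 did not pass the test. Siglece, an inhibitory receptor, averaged 203 ± 27.7 CPM in ductal macrophages and 3.35 ± 4.81 CPM in the dendritic cells, and Clec5a, an activating lectin, averaged 197 ± 45.5 CPM in ductal macrophages and 1.62 ± 1.60 CPM in the dendritic cells. Siglecg, an inhibitory receptor of B cells and type 1 dendritic cells, had 3 ductal counts and averaged 0.284 ± 0.401 CPM in ductal macrophages and 67.1 ± 10.9 CPM in the dendritic cells.

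The CD103+ and CD103- dendritic cells each gave a similar number of differences from ductal macrophages. Against CD103+ cells 1964 genes (12.5%) were higher and 1783 (11.4%) lower, and against CD103- cells 1917 (12.2%) were higher and 1680 (10.7%) lower. In either direction that was 23.9% of genes against CD103+ and 22.9% against CD103- cells. Both comparisons share the ductal libraries. Between CD103+ and CD103- cells, 5 genes (0.0319%) were higher and 0 lower by edgeR, with 1000 genes at an unadjusted p under 0.05. DESeq2 called 118 higher and 31 lower. Mmp12 was higher in CD103+ than CD103- cells by 8.80 ± 0.70 on the log2 scale (adjusted p = 0.00126). Ductal macrophages exceeded CD103+ cells in Mmp12 by 4.77 ± 0.50 and CD103- cells by 13.57 ± 0.78. Mgl2 had 111 and 145 CPM in ductal macrophages, against 25.3 and 22.7 CPM in CD103+ and 2.28 and 1.36 CPM in CD103- dendritic cells, so ductal macrophages were higher by 2.41 ± 0.28 against CD103+ and 6.16 ± 0.35 against CD103- cells. Clec4n, the fungal receptor dectin-2, had 250.3 and 152 CPM in ductal macrophages, against 20.4 and 9.82 CPM in CD103+ and 0.690 and 1.09 CPM in CD103- dendritic cells, and Ms4a6d had 286 and 366 CPM in ductal macrophages, against 14.4 and 20.4 CPM in CD103+ and 4.14 and 2.67 CPM in CD103- dendritic cells. For these 4 genes the order was ductal macrophages, then CD103+, then CD103- cells. Itgae instead was lowest in ductal macrophages, by -8.62 ± 0.76 against CD103+ and -3.96 ± 0.82 against CD103- cells.

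Levels of different genes were compared as RPKM, which divides CPM by the length of the gene model. The 10 highest in ductal macrophages were Cd74, H2-Ab1, Apoe, H2-Aa, Fth1, Lyz2, H2-Eb1, Ctss, B2m and Ctsz, from 81774 RPKM for Cd74 to 4693 RPKM for Ctsz. In the dendritic cells, Cd74, H2-Ab1, Cst3, H2-Aa and COX1 were the 5 highest, from 20247 RPKM for Cd74 to 7027 RPKM for COX1. Apoe stood at 31002 RPKM in ductal macrophages and 156 RPKM in the dendritic cells. Lyz2, lysozyme, stood at 13301 RPKM in ductal macrophages and 1438 RPKM in the dendritic cells, and Ctss at 6818 and 371 RPKM. Class II genes led both profiles, while lipid, iron and lysosomal genes filled most of the other leading places in ductal macrophages. COX1, a mitochondrial gene, was not called in the fit of all libraries (log2 fold change -1.29 ± 0.46, adjusted p = 0.0581), but was called lower under 10 alternatives, DESeq2 (0.00135) and limma-voom (0.0292) among them. ND1, also mitochondrial, was not called in that fit but was called lower by DESeq2 (0.00431) and limma-voom (0.0377). CYTB, another mitochondrial gene, was called lower in that fit, and its call was lost with the replicate number as a block (log2 fold change -1.40, adjusted p = 0.0538).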

How the data were processed

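RNA of 10 sorted cell libraries, 2 for each of 5 mammary gland populations, was sequenced in pairs of 80 bases on an Illumina NextSeq instrument after RNeasy Plus Mini extraction and TruSeq library preparation, per the labels' protocols and the series' design text. The values are raw read counts per gene, deposited by the authors without normalization and made with featureCounts on mm10, per the submitters' processing notes. The aligner, the annotation release and the use of strand are not stated in the sources used here, so reads of overlapping or antisense genes cannot be told apart. Each of the 10 library files equalled its column of the series table. Of 27179 gene IDs, 25275 were named by RefSeq and 18 by GENCODE, and 1886 stayed unnamed.

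Ductal macrophages were compared with the mean of both CD11b- dendritic cell populations in a fit of all 10 libraries and 5 populations (5 residual degrees of freedom), with edgeR 4.0.16 in R 4.3.3. TMM scaling, filterByExpr (minimum count 10, minimum total 15), the quasi-likelihood F test and Benjamini-Hochberg adjusted p-values over 15681 genes were used, and every adjusted p in the text comes from that fit unless another tool or a left-out library is named. The log2 fold change against both populations weights the log2 fold change against each equally, so it can differ from the ratio of mean CPM. The standard error is the log2 fold change divided by the square root of F. CPM divide counts by the TMM-scaled library total, with no pseudocount. Where a group had no count, a bound takes 3 counts over the group, and 95% intervals and floors cover counting error only. The edgeR fit, DESeq2 and limma-voom were tested on simulated counts, and the other alternatives were not. Python 3.11.15, pandas 2.3.3 and matplotlib 3.10.9 made the tables and plots.

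The members of the comparison and all 41 gene lists were chosen with earlier results of these data known. Named by rule were up to 15 called genes per direction with the largest log2 fold change, no overlap between groups and at least 30 CPM in the higher group, the 5 largest differences in each list, the lineage and sorting genes, the 10 highest RPKM in each group, and up to 10 genes called between both dendritic cell populations. Some genes that the rule names are not reported here. Promoter windows came from RefSeq (GRCm38), and 5 motifs were searched on both strands (the E-box, AP-1 and ETS motifs, the interferon-stimulated response element and the ETS-IRF composite element). The 19 alternatives covered scaling, filters, DESeq2 1.42.0, limma 3.58.1 (voom), a fold threshold, the replicate block, the libraries fitted and each left-out library.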

Additional observations from a re-analysis of the deposited data

Results flagged for a closer look

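For 5 genes the difference between ductal macrophages and dendritic cells depended on the dendritic cell population, by edgeR's test of CD103+ minus CD103- dendritic cells, which is the difference between both ductal comparisons. Mmp12, the macrophage elastase, was higher in CD103+ than in CD103- dendritic cells by 8.80 on the log2 scale (adjusted p = 0.00126), and the lectin gene Mgl2 by 3.75 (adjusted p = 0.00128). Itgae, which encodes the CD103 used in the sort, differed by 4.66 (adjusted p = 0.0287). Clec4n and Ms4a6d differed by 4.04 and 2.37 (adjusted p = 0.0376 for both). In each of these genes both CD103+ libraries were above both CD103- libraries.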

How the results depend on the processing

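The comparisons were recomputed under 19 alternatives, of which the 4 dendritic cell libraries as 1 group applied to the comparison with both populations alone. At least 215 of the 218 genes named by rule could be tested under each alternative, and none of those called changed direction where tested. When the test was set against a fold of 2, the comparison with both dendritic cell populations gave 978 genes called higher and 768 called lower, with 775 and 683 against CD103+ cells alone, and 878 and 716 against CD103- cells alone. Scaling by total counts gave 1239 higher and 4671 lower, 978 and 3921 against CD103+ cells, and 1104 and 3982 against CD103- cells. It left 21.0% of called genes higher, against 54.2% under TMM, and limma-voom left 63.3%. Limma-voom gave 1264 lower genes, and 1133 against CD103+ cells. Between CD103+ and CD103- cells the count higher was 3 in the 6 libraries alone, 118 by DESeq2, 3 by limma-voom, 106 without a filter and 2 against a fold of 2, and the count lower was 31 by DESeq2, 1 by limma-voom and 44 without a filter.

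Leaving out 1 library gave 1327 to 2166 higher and 869 to 1791 lower genes, 999 to 1943 and 715 to 1769 against CD103+ cells, and 1118 to 1822 and 796 to 1525 against CD103- cells. Between CD103+ and CD103- cells it gave 2 to 18 higher and 0 to 11 lower. With 1 ductal library left, that sample was assumed to vary like the other populations. The remaining alternatives gave 2066 to 2709 higher and, apart from limma-voom, 1775 to 2588 lower genes.

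The labels do not say that a replicate number marks a shared animal or day, and the numbers were not taken to pair the libraries. Deviations of same-numbered libraries correlated at -0.163 between ductal and CD103+ cells, -0.133 between ductal and CD103- cells and 0.177 between CD103+ and CD103- cells. Over all 10 pairs of populations, 4 were positive (0.102 to 0.177) and 6 negative (-0.176 to -0.124), and whether the numbers are crossed was not tested. With the replicate number as a block, 2262 genes were higher and 1775 lower, and 3 differed between CD103+ and CD103- cells, all higher. The block also ended the calls of H2-Aa, H2-Ab1 and H2-Eb1 (adjusted p = 0.0614, 0.0536 and 0.052), so that 2 class II genes were called higher, and those of Cst3 (0.0531) and Cxcr5 (0.0751). A block with the dendritic cell numbers crossed, chosen after seeing the data, gave 2709 and 2588, and 8 higher between CD103+ and CD103- cells.

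The ductal libraries had the lowest depth of the 6, so genes under about 3 counts there are at the limit of detection. With members at 0 in 1 group set to their bound, the median of the lymphocyte-type list was -0.88 in place of -1.09, and without ductal replicate 1 it was -1.85.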
